A study of Homo sapiens with 9 samples.

Results

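The genes described here carry out or control the presentation of peptides by major histocompatibility complex (MHC) class I molecules. They were chosen by name, as rows of the deposited array table whose gene symbol was HLA-B, HLA-C, B2M, TAP1, TAP2, TAPBP, PSMB8, PSMB9 or NLRC5. Of these 9 genes, 8 had a row, among 17687 named genes and 21448 rows in all, and each had 1 row. HLA-B had no named row and was not analysed here. The arrays measured RNA of AsPC-1 cells, a human line established from pancreatic adenocarcinoma. In 2 of the groups, sh1 and sh2, the cells carried the plasmid pBAsi-hU6 NEO with shRNA-1 or shRNA-2 against SLP-2, the protein of the gene STOML2, and in the control group they carried the same plasmid without a hairpin. All groups were selected with Geneticin for 3 weeks, each was grown from a single colony, and each had 3 arrays. A group is thus 1 clone, nothing in the sources says that its arrays came from separate cultures, and p-values cover the spread among arrays alone, which may be technical. An effect of a hairpin and a difference between clones cannot be told apart.

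Class I molecules show the cell's own protein fragments to cytotoxic T cells. The proteasome cuts proteins into peptides, and PSMB8 and PSMB9 encode catalytic subunits that replace the constitutive ones in the immunoproteasome. TAP1 and TAP2 form the transporter that carries the peptides into the endoplasmic reticulum. There tapasin, the product of TAPBP, holds the transporter beside a heavy chain such as HLA-C paired with beta-2-microglobulin, the product of B2M. NLRC5 is a transactivator of class I genes, and interferon gamma induces many genes of the pathway. TAP2, PSMB8, TAP1 and PSMB9 lie side by side in the MHC of chromosome 6, HLA-C and TAPBP lie on either side of them, and B2M and NLRC5 lie on chromosomes 15 and 16.

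The target of the hairpins was low in the lines that carried them. STOML2 had log2 signals of 8.36, 8.42 and 8.18 in sh1 and 7.85, 7.99 and 7.35 in sh2, against 13.70, 13.66 and 13.65 in the control, a difference of -5.35 in sh1 and -5.94 in sh2 (limma, adjusted p = 2.31e-09 and 1.63e-09). The 9 arrays had medians of 6.57 to 6.65, and signals correlated across rows at r = 0.994 to 0.996 within groups and 0.982 to 0.988 between groups. No detection calls were used, and signals under the lower quartile over all rows (a mean log2 signal of 4.21) were taken as near background. As a check of the label, the 8 epithelial markers had mean signals of 9.20 to 16.67, and the 3 measured acinar markers were near background. The epithelial markers moved both ways: 1 fell and 5 rose in sh1, and 2 fell and 4 rose in sh2. Of all rows, 9.0% were called lower and 9.76% higher in sh1, and 7.98% and 8.33% in sh2. Among named genes with a signal above the median, 14.7% were lower and 16.2% higher in sh1, and 13.3% and 13.8% in sh2. EPCAM, an adhesion molecule, rose by 4.94 and 0.74 (limma, adjusted p = 1.77e-09 and 0.00361). KRT19, a keratin, changed by -1.69 and -0.57 (adjusted p = 1.74e-05 and 0.0286), and CDH1, E-cadherin, by 2.03 and -0.52 (adjusted p = 4.02e-06 and 0.0419). In sh2 the call of KRT19 was lost without any 1 control array or sh2 array 2 or 3 (-0.59 to -0.54), and that of CDH1 without any 1 control array, sh1 array 1 or sh2 array 1 or 3 (-0.58 to -0.45). Both sh2 calls were also lost when the median of the nearest expressed genes was subtracted (-0.38 and -0.41). Mean signals of the epithelial list were 12.79 to 12.98 per array in sh1, 12.21 to 12.29 in sh2 and 11.65 to 11.78 in the control. Those of the 11 measured leukocyte markers were 4.33 to 4.42 in sh1, 4.98 to 5.07 in sh2 and 4.54 to 4.69 in the control, and 6 of the 11, PTPRC among them, lay under the quartile. NCAM1, an adhesion molecule of natural killer and neural cells, had a difference of -1.45 in sh1, against 5.43 in sh2 (limma, adjusted p = 6.01e-05 and 2.1e-09), while the median over the list was 0.07 in sh2. PTPRC, the leukocyte antigen CD45, fell by 0.70 and 0.65 (adjusted p = 0.0108 and 0.0191), the second of which was lost without control array 2 or 3 or sh2 array 2 or 3 (-0.64 to -0.58). The 6 fibroblast markers had means of 5.39 to 5.63 in sh1, 5.44 to 5.55 in sh2 and 6.17 to 6.31 in the control. Of these, the collagen genes COL1A1 (-3.19 and -3.48) and COL1A2 (-1.18 and -1.16) fell in both lines, and the other 4 did not pass. The part of these shifts in the results below was not tested.

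The comparison of each hairpin line with the control asks how the class I genes stood when STOML2 was low. TAPBP, PSMB8, PSMB9 and TAP1, which supply and load peptides, fell in both lines, TAP2 and HLA-C fell in sh2, and B2M and NLRC5 did not pass the test in either line. In sh1, 4 of the 8 measured members fell (TAPBP, PSMB8, PSMB9 and TAP1) and 0 rose, where 9.0% of all rows were called lower and 9.76% higher (limma, adjusted p under 0.05 over all rows). In sh2, 6 of the 8 fell (the same 4 with TAP2 and HLA-C) and 0 rose, where 7.98% of all rows were called lower and 8.33% higher. The 4 genes that fell in both lines stand beside 4.65% of all rows that did so, and the comparisons share their control arrays. The median log2 difference of the 8 members was -0.52 in sh1 and -1.01 in sh2, beside 0.02 and 0.01 over all named genes. Because 6 of the members share 1 chromosomal region, they are not independent of one another. In bulk RNA, fewer expressing cells and less RNA per cell cannot be told apart.

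**Figure D1:**
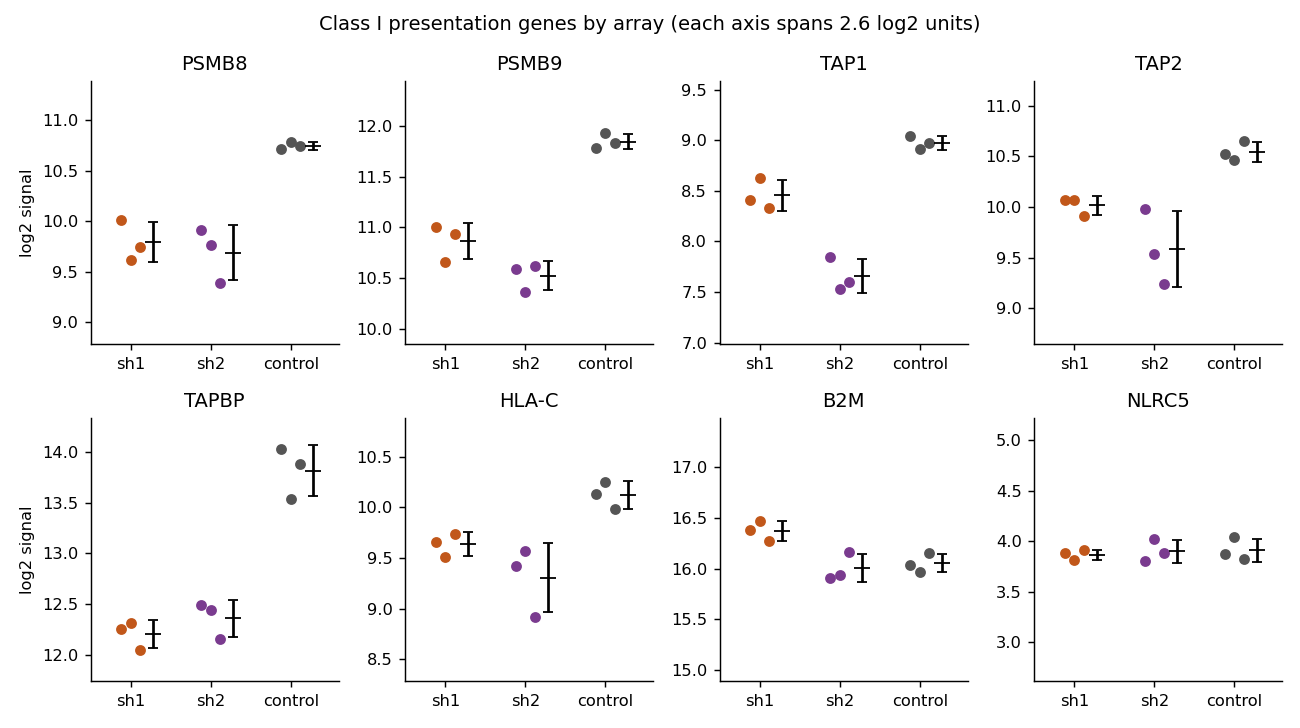
Log2 signal of the 8 measured class I presentation genes on each array of sh1, sh2 and control (points), with the mean and SD of each group (bars, n = 3), on axes that each span 2.6 log2 units. For PSMB8, PSMB9, TAP1, TAP2, TAPBP and HLA-C all arrays of both hairpin lines lie below all control arrays, B2M is highest in sh1, and NLRC5 lies near 3.9 in every group.

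The immunoproteasome subunits PSMB8 and PSMB9 fell in both lines. PSMB8, whose product has chymotrypsin-like activity, had log2 signals of 10.01, 9.62 and 9.75 in sh1 and 9.91, 9.77 and 9.39 in sh2, against 10.71, 10.78 and 10.74 in the control. No array of a hairpin line overlapped with the control arrays, whose SD was 0.04 around a mean of 10.74. PSMB8 changed by -0.95 ± 0.16 (SE) in sh1, 1.93-fold lower (limma, adjusted p = 0.00131), and by -1.05 ± 0.16 in sh2, 2.08-fold lower (adjusted p = 0.00078). PSMB9, which takes the place of PSMB6, had signals of 11.00, 10.66 and 10.93 in sh1 and 10.59, 10.36 and 10.62 in sh2, against 11.78, 11.93 and 11.83 in the control. Again the hairpin arrays all lay below the control arrays. PSMB9 changed by -0.98 ± 0.14 (SE) in sh1, 1.98-fold lower (limma, adjusted p = 0.000364), and by -1.32 ± 0.14 in sh2, 2.50-fold lower (adjusted p = 5.02e-05). Neither gene passed between the lines (-0.10 and -0.34 for sh2 minus sh1, adjusted p = 0.768 and 0.151).

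The constitutive catalytic subunits that these replace did not pass. PSMB5, the counterpart of PSMB8, had differences of -0.29 (sh1) and 0.19 (sh2, limma adjusted p = 0.392 and 0.617). PSMB6, the counterpart of PSMB9, differed by -0.17 and -0.03 (adjusted p = 0.521 and 0.939), and PSMB7 by -0.12 and 0.14 (adjusted p = 0.69 and 0.654). PSMB10, the other catalytic immunoproteasome subunit, encoded on chromosome 16, differed by -0.62 and -0.67 (adjusted p = 0.0843 and 0.0664), and passed without control array 3 (-0.79 and -0.85). Among the 14 subunits of the constitutive 20S particle, 2 rose in sh1, 1 rose in sh2 and 0 fell in either, with medians of 0.07 and 0.16. Of all rows, 9.76% were called higher and 9.0% lower in sh1, and 8.33% and 7.98% in sh2. Among named genes with a signal above the median, 16.2% were higher in sh1 and 13.8% in sh2. PSMB4, a structural subunit, was the 1 that rose in both (0.47 and 0.43, adjusted p = 0.0226 and 0.0359), and PSMA4, on chromosome 15, rose by 0.74 in sh1 (adjusted p = 0.000907), or by 0.09 after the median of its 40 nearest expressed genes was subtracted (adjusted p = 0.666). The calls of PSMB4 were lost without control array 2 or 3 or sh1 array 1 or 3 in sh1 (0.41 to 0.48), and without any control array, sh1 array 3 or sh2 array 1 or 3 in sh2 (0.38 to 0.49). The sh2 call of PSMB4 was also lost after the neighbours were subtracted (0.27, adjusted p = 0.187). Of the 5 other measured genes of the immunoproteasome and its PA28 activators, PSME3 alone passed, by -0.48 in sh2 (adjusted p = 0.0274), and not without any 1 control array or sh2 array 1 or 2 (-0.50 to -0.39).

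Of the transporter genes, TAP1 fell in both lines and further in sh2. TAP2 fell in sh2 and did not pass in sh1, where its difference was close to that of TAP1. TAP1 had log2 signals of 8.41, 8.63 and 8.33 in sh1 and 7.85, 7.53 and 7.60 in sh2, against 9.04, 8.91 and 8.97 in the control. The 3 groups did not overlap with each other, with sh1 in the middle. TAP1 changed by -0.52 ± 0.14 (SE) in sh1, 1.43-fold lower (limma, adjusted p = 0.0198), and by -1.31 ± 0.14 in sh2, 2.48-fold lower (adjusted p = 5.13e-05). It was the 1 member that passed between the lines, with a difference of -0.80 for sh2 minus sh1 (adjusted p = 0.00251), where 5.57% of all rows were called lower and 5.73% higher. The sh1 call of TAP1 was lost without sh1 array 1 or 3 or without control array 1 or 3 (-0.52 to -0.45, adjusted p = 0.0537 to 0.0748). TAP2 had signals of 10.07, 10.07 and 9.91 in sh1 and 9.98, 9.54 and 9.24 in sh2, against 10.52, 10.46 and 10.65 in the control. All hairpin arrays of TAP2 lay below the control arrays, and the spread was widest in sh2 (SD 0.37). TAP2 changed by -0.96 ± 0.17 (SE) in sh2, 1.94-fold lower (limma, adjusted p = 0.0028), while the -0.53 ± 0.17 in sh1 did not pass (adjusted p = 0.0566). In sh1 it did pass without sh2 array 1 or 3 and under other settings given in the last section. Between the lines TAP2 did not pass (-0.43 for sh2 minus sh1, adjusted p = 0.155).

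TAPBP had the largest fall among the members in either line. Its log2 signals were 12.25, 12.31 and 12.05 in sh1 and 12.49, 12.44 and 12.15 in sh2, against 14.03, 13.54 and 13.88 in the control. The highest hairpin array lay about 1 log2 unit below the lowest control array. TAPBP changed by -1.61 ± 0.16 (SE) in sh1, a 3.06-fold lower signal (limma, adjusted p = 2.81e-05), and by -1.46 ± 0.16 in sh2, 2.75-fold lower (adjusted p = 7.80e-05). The lines did not pass against each other (0.16 for sh2 minus sh1, 95% interval -0.19 to 0.50, adjusted p = 0.634).

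Of the assembled class I molecule, the heavy chain HLA-C fell in sh2, and B2M did not pass. HLA-C had log2 signals of 9.66, 9.51 and 9.74 in sh1 and 9.42, 9.57 and 8.92 in sh2, against 10.13, 10.25 and 9.98 in the control, with no overlap of either line with the control. HLA-C changed by -0.82 ± 0.17 (SE) in sh2, 1.76-fold lower (limma, adjusted p = 0.00664), while the -0.48 ± 0.17 in sh1 did not pass (adjusted p = 0.0738). In sh1 it did pass without sh2 array 3 and under other settings given in the last section. Between the lines HLA-C did not pass (-0.33 for sh2 minus sh1, adjusted p = 0.276). Class I heavy chains are nearly identical in long stretches, so a row named for 1 of them may take signal from others. B2M had signals of 16.38, 16.47 and 16.27 in sh1 and 15.91, 15.94 and 16.16 in sh2, against 16.04, 15.97 and 16.15 in the control. Its sh1 arrays all lay above the control arrays, and its sh2 arrays overlapped with them. The B2M difference was 0.32 in sh1 (95% interval 0.04 to 0.60, limma adjusted p = 0.11) and -0.05 in sh2 (95% interval -0.33 to 0.23, adjusted p = 0.856).

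NLRC5 gave signals under the lower quartile on all arrays. They were 3.88, 3.81 and 3.91 in sh1 and 3.80, 4.02 and 3.88 in sh2, against 3.87, 4.04 and 3.82 in the control, and the groups overlapped. Its differences of -0.04 in sh1 (95% interval -0.31 to 0.23, adjusted p = 0.867) and -0.01 in sh2 (95% interval -0.28 to 0.26, adjusted p = 0.973) are of a signal near background, and a change of NLRC5 below that level would not be seen here. The subunits of the RFX complex, with which NLRC5 acts on class I promoters, were named beyond the rule for named genes. RFX5 differed by -0.05 and -0.09, RFXAP by -0.11 and -0.03, and RFXANK by 0.24 and 0.11, and none passed (adjusted p = 0.234 to 0.953).

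Counted by arrays alone, 6 of the 8 members had all 3 sh1 arrays below all control arrays, as did 16.4% of all rows, and 1 (B2M) had all above, as did 18.2%. In sh2 the same was true of 6 members below and 0 above, beside 15.4% and 17.1% of all rows. Between the lines, 3 members had all sh2 arrays below all sh1 arrays and 0 had them above, beside 14.0% and 13.1% of all rows. The mean of the 8 members after each gene was centred on its own mean was -0.15 to -0.05 in sh1 and -0.52 to -0.27 in sh2, against 0.48 to 0.51 in the control. The genes most like that mean over the 9 arrays, among 7188 ranked, were EPHX1 (Pearson r = 0.992), SQSTM1 (0.991), FADS2 (0.990), PAX2 (0.987) and FAM53B (0.987). These arrays fall into 3 clones, so such values describe an order of the groups (control highest, sh2 lowest) and carry no p. SQSTM1, an adaptor of autophagy, differed by -0.57 in sh1 and -0.88 in sh2, and the desaturase FADS2 by -1.29 and -1.83. After the neighbours were subtracted SQSTM1 no longer passed (-0.31 and -0.37, limma adjusted p = 0.106 and 0.0666). None of the 5 lies on chromosome 6.

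Many genes around the members were lower as well. In the order of the RefSeq annotation of GRCh38.p14, 100 named genes of the table stretch from HLA-F to TAPBP, and 39 of them are no members and have a signal above the median of all rows (6.61). Of these 39, 19 fell and 2 rose in sh1 (medians of -0.43, beside 0.04 over all 9366 named genes with such a signal), and 16 fell and 1 rose in sh2 (-0.43 beside 0.03). That is 48.7% and 41.0% called lower, against 14.7% and 13.3% of all such genes. The 39 include HLA-E, HLA-F, HLA-G and HLA-L, and of the 35 genes without these, 51.4% fell in sh1 and 37.1% in sh2. On the rest of chromosome 6, 31.0% of 465 such genes fell in sh1 and 29.7% in sh2. TAP2, PSMB8, TAP1 and PSMB9 have the same 40 nearest expressed neighbours, from DDR1 to RPS10-NUDT3. Their median difference was -0.49 in sh1 and -0.44 in sh2, with 34 of 40 below 0 in each line. Of the low-signal genes beside the members, HLA-DOB beside TAP2 differed by 0.13 and 0.25, HLA-DMA beside PSMB9 by -0.09 and 0.08, and B3GALT4 and ZBTB22 on either side of TAPBP by -0.06 and -0.46 in sh1 and by -0.07 and -0.49 in sh2, and none passed. PSMB8-AS1, which overlaps with both PSMB8 and TAP1 so that their signals may mix, had a mean signal of 4.26 and differed by -0.51 in sh1 (limma, adjusted p = 0.0334), which was lost without control array 1 or 3 or sh1 array 1 or 2 (-0.56 to -0.38), and by -0.06 in sh2.

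**Figure D2:**
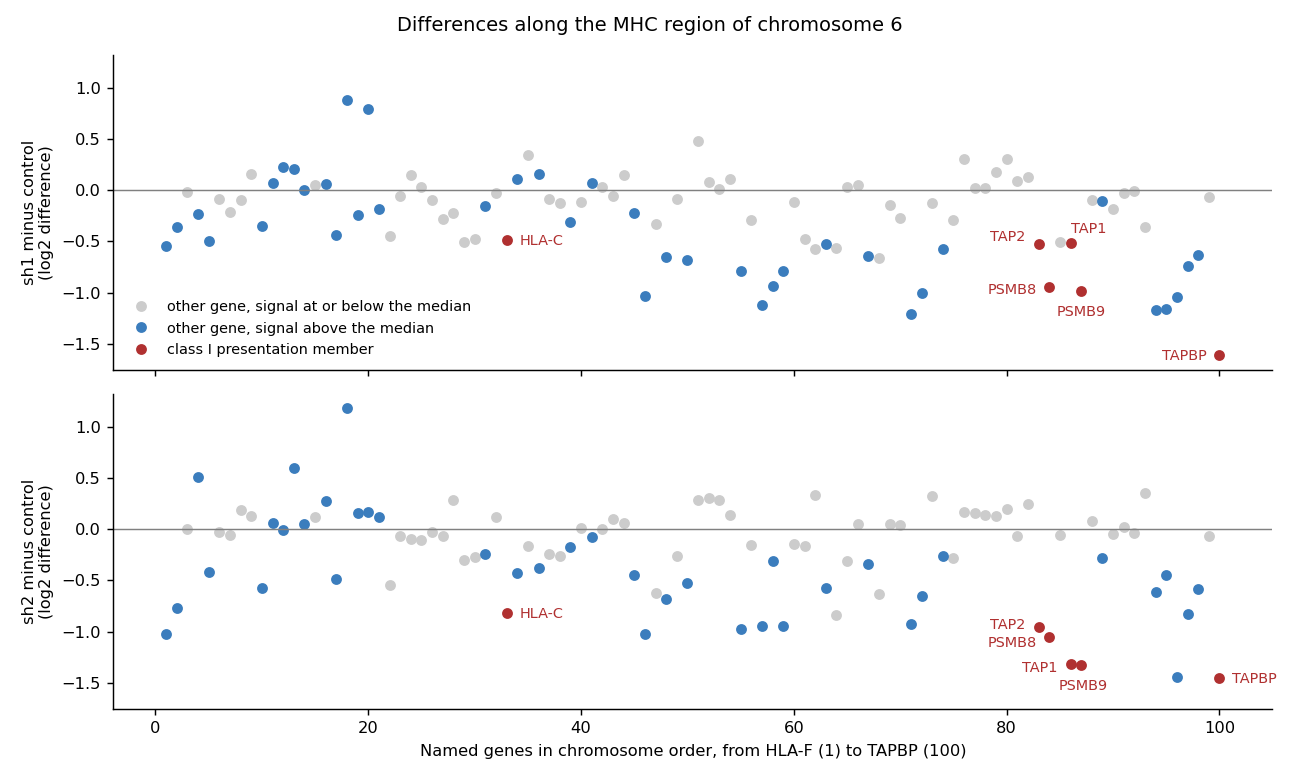
Log2 difference from the control in sh1 (top) and sh2 (bottom) for the 100 named genes from HLA-F to TAPBP in chromosome order, with members in red, other genes with a signal above the median in blue and weaker ones in grey. Blue points lie mostly below 0 from the middle of the region on, and TAPBP is the lowest point in each panel.

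When the median of the 40 nearest expressed genes that are no members was subtracted on each array, the members on chromosome 6 differed in what remained. TAPBP remained at -1.15 in sh1 and at -0.98 in sh2 (limma, adjusted p = 0.00014 and 0.00056), and no neighbour of its 40 had a larger fall in either line. PSMB8 remained at -0.49 and -0.58 (adjusted p = 0.0416 and 0.021) and PSMB9 at -0.52 and -0.85 (adjusted p = 0.0407 and 0.00349). TAP1 remained at -0.84 in sh2 (adjusted p = 0.00107) and stood at -0.05 in sh1 (adjusted p = 0.836), where its call was lost. Calls of TAP2 and HLA-C in sh2 were lost too (-0.48 and -0.45, adjusted p = 0.0549 and 0.0667). The neighbours subtracted from HLA-C, from PGBD1 to SLC39A7, include the heavy chains HLA-E, HLA-F and HLA-G. In all, 3 of the 4 calls in sh1 and 4 of the 6 in sh2 were shared by both fits. The neighbours of B2M on chromosome 15 were higher in sh1, where 32 of 40 rose and their median was 0.73, beside 0.24 in sh2. Against them B2M turned from a difference of 0.32 that did not pass into one of -0.43 in sh1 that did (adjusted p = 0.0345), and stood at -0.31 in sh2 (adjusted p = 0.122). The -0.43 is relative to neighbours that rose and shows no fall of B2M RNA. As deposited, all sh1 arrays of B2M lay above all control arrays. Whether the regional shifts come from copy number or from regulation cannot be read from these arrays and was not tested.

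**Figure D3:**
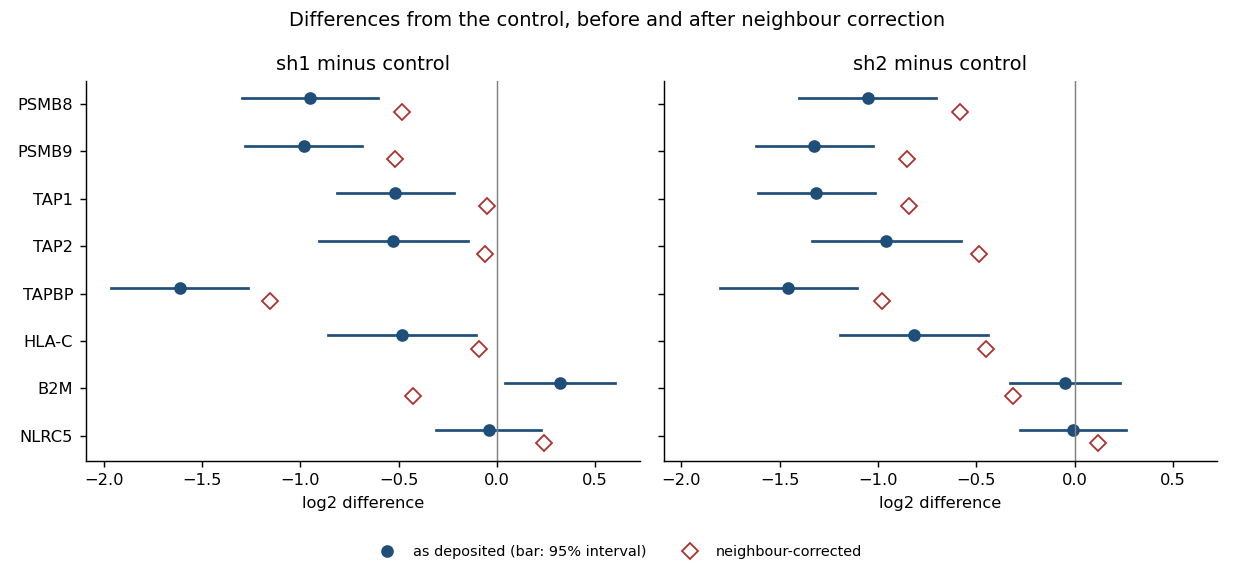
Log2 difference from the control of each member in sh1 (left) and sh2 (right), as deposited (filled, with its 95% interval from limma) and after the median of the 40 nearest expressed genes was subtracted on each array (open diamonds). TAPBP stays farthest below 0 in sh1, TAP1 and TAP2 move close to 0 in sh1, and B2M crosses 0 in sh1.

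Stretches of DNA at the gene starts are shown for members that fell together (TAP1, PSMB9, PSMB8 and TAPBP) and for B2M, which did not pass. Each is 300 bases of RefSeq's GRCh38.p14, 250 before and 50 after an annotated start, printed 5′ to 3′ on the strand of the gene. Capitals mark matches, on either strand, to GAAANNGAAA (as in the interferon-stimulated response element), TTCNNNGAA (as in the gamma-activated site), CCAAT, or TGACG (the start of a cyclic AMP response element, as in the X2 box of MHC promoters). Overlapping matches form 1 run of capitals. TAP1 and PSMB9 are transcribed away from each other, and their windows share 13 bases. The upstream start of PSMB8 and a second start of TAP1 are not printed. Of these letters, the window of the former holds TGACG alone and that of the latter TTCNNNGAA alone.
TAP1, chr6:32853655-32853954, minus strand: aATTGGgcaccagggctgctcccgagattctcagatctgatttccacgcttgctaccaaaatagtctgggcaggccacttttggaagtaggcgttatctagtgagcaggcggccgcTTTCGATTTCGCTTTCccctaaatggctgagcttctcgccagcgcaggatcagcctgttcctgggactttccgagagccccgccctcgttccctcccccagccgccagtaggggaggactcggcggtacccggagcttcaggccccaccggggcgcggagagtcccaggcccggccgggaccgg
PSMB9, chr6:32853942-32854241, plus strand: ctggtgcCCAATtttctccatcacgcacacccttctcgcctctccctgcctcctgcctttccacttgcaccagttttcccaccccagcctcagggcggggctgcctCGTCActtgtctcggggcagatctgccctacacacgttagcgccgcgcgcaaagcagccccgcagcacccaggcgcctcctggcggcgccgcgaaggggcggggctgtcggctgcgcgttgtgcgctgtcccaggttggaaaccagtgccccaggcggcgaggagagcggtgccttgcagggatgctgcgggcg
PSMB8, downstream start, chr6:32843998-32844297, minus strand: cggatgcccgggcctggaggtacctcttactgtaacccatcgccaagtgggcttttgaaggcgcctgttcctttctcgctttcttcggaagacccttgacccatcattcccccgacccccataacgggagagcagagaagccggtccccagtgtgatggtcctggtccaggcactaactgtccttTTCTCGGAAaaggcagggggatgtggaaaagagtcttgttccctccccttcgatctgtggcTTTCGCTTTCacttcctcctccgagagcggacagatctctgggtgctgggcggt
TAPBP, chr6:33314029-33314328, minus strand: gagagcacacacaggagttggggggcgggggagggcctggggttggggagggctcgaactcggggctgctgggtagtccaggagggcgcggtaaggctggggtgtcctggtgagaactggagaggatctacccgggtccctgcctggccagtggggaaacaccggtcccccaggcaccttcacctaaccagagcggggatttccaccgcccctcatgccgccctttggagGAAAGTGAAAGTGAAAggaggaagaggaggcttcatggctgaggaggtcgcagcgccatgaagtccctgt
B2M, chr15:44711267-44711566, plus strand: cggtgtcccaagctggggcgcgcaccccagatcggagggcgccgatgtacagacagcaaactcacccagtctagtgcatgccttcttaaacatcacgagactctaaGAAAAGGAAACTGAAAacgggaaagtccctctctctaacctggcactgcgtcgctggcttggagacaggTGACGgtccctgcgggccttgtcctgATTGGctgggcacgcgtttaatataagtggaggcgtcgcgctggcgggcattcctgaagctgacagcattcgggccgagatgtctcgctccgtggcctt

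RefSeq's table held 10 such windows for 8 of the 9 members, and none for NLRC5. The letters GAAANNGAAA were found in 5 of the 10 windows, those of TAP1, TAPBP, TAP2, B2M and the downstream start of PSMB8, and in 3.57% of all 35116 windows. TTCNNNGAA was found in 2 of the 10 (a second start of TAP1 and the downstream start of PSMB8) and in 7.66% of all. CCAAT was found in 5 of the 10 and in 34.6% of all, and TGACG in 6 of the 10 and in 24.6% of all. Overlapping matches to GAAANNGAAA are held by TAPBP, the member that fell most, by TAP1, which also fell in both lines, and by B2M, which did not pass. The matches describe letters only and show no binding.

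Among the other class I heavy chains, the nonclassical HLA-F fell in both lines and HLA-G in sh2, and HLA-E did not pass. HLA-F had log2 signals of 8.17, 8.23 and 8.32 in sh1 and 7.59, 8.07 and 7.63 in sh2, against 8.84, 8.80 and 8.71 in the control. It changed by -0.54 in sh1 (limma, adjusted p = 0.0222) and by -1.02 in sh2 (adjusted p = 0.000544), and by -0.58 and -1.001 after the neighbours were subtracted (adjusted p = 0.0357 and 0.00203). The sh1 call of HLA-F was lost without control array 1 or 2 or sh1 array 1 or 2 (-0.54 to -0.51). HLA-G differed by -0.36 in sh1 (adjusted p = 0.0549) and fell by 0.77 in sh2 (adjusted p = 0.000862). HLA-E, the ligand of NKG2A receptors, differed by 0.23 and -0.01 (adjusted p = 0.322 and 0.984). Of the 4 measured heavy chains, HLA-C included, 1 fell in sh1 and 3 in sh2, beside 9.0% and 7.98% of all rows.

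Further genes of peptide loading and trimming moved in both directions. Of 11 measured genes besides the members, 4 fell and 1 rose in sh1, and 4 fell and 2 rose in sh2 (medians of -0.36 and -0.23). The shares of all rows called lower and higher were 9.0% and 9.76% in sh1, and 7.98% and 8.33% in sh2. ERAP2 and ERAP1, aminopeptidases that trim peptides in the endoplasmic reticulum, had the largest falls. ERAP2 had signals of 9.97, 10.12 and 10.04 in sh1 and 9.94, 10.62 and 10.51 in sh2, against 11.66, 11.64 and 11.86 in the control. It fell by 1.68 and 1.36 (limma, adjusted p = 3.86e-05 and 0.000229), with no overlap with the control, and ERAP1 changed by -1.02 and -0.67 (adjusted p = 0.000429 and 0.00823). Both genes lie on chromosome 5. After the neighbours were subtracted ERAP2 stood at -1.32 and -1.06 (adjusted p = 0.000207 and 0.0013) and ERAP1 at -0.67 and -0.36 (adjusted p = 0.00815 and 0.13). PDIA3, a partner of tapasin in the loading complex, rose by 0.69 and 0.55 (adjusted p = 0.00133 and 0.00677) but lies on chromosome 15, and its values were -0.09 and 0.32 after the neighbours were subtracted (adjusted p = 0.67 and 0.0985). SEC61A1, a subunit of the translocon, fell by 0.47 and 0.51 (adjusted p = 0.0183 and 0.0128). The sh1 call of SEC61A1 was lost without control array 1 or 3 or sh1 array 3 (-0.45 to -0.42) and its sh2 call without control array 3 (-0.47). CANX, the chaperone calnexin, fell by 0.50 in sh2 (adjusted p = 0.0128) a call lost without control array 2 (-0.46), and stood at 0.004 after the neighbours were subtracted. HSPA5, the chaperone BiP, rose by 0.49 in sh2 (adjusted p = 0.0127).

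The transcription factors of class I genes moved both ways. Of 20 measured besides NLRC5, 4 fell and 3 rose in sh1, and 4 fell and 4 rose in sh2 (medians of 0.12 and -0.06). Over all rows, 9.0% were called lower and 9.76% higher in sh1, and 7.98% and 8.33% in sh2. Among named genes with a signal above the median, 14.7% were lower and 16.2% higher in sh1, and 13.3% and 13.8% in sh2. IRF1, an interferon-induced activator of TAP1 and PSMB9, had log2 signals of 8.26, 8.09 and 7.96 in sh1 and 6.09, 6.71 and 6.46 in sh2, against 7.89, 7.66 and 8.17 in the control. The sh2 arrays lay apart below the others, while sh1 overlapped with the control. IRF1 fell by 1.49 in sh2 (limma, adjusted p = 0.000188), differed by 0.20 in sh1 (adjusted p = 0.537) and by -1.68 for sh2 minus sh1 (adjusted p = 9.03e-05). NFKB2, an NF-kappa-B subunit, fell by 1.23 and 0.76 (adjusted p = 5.62e-05 and 0.00218), and STAT3 by -0.93 in each (adjusted p = 0.000373 and 0.000448). NFYB, a subunit of the factor that binds CCAAT, rose by 1.22 and 0.68 (adjusted p = 3.92e-05 and 0.00315), the second of which no longer passed after the neighbours were subtracted (0.32, adjusted p = 0.127). NFYA, another subunit of that factor, fell by 0.58 and 0.55 (adjusted p = 0.00568 and 0.00985), but it lies on chromosome 6 and stood at 0.07 and 0.12 after the neighbours were subtracted. EZH2, the methyltransferase of the Polycomb complex that can silence class I genes, rose by 0.87 and 0.54 (adjusted p = 0.00104 and 0.0208), and its sh2 call was lost without control array 1 or 2 or sh2 array 2 (0.47 to 0.55) and after the neighbours were subtracted (0.28, adjusted p = 0.201).

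Guanylate-binding proteins fell among the genes that interferon gamma induces. Of 39 such genes measured besides the members, 7 fell and 2 rose in sh1, and 9 fell and 3 rose in sh2, beside 9.0% of all rows lower and 9.76% higher in sh1 and 7.98% and 8.33% in sh2. The medians of the list were -0.13 and -0.21. GBP2 had log2 signals of 5.68, 5.95 and 5.77 in sh1 and 6.42, 6.12 and 6.35 in sh2, against 9.99, 9.94 and 9.94 in the control. GBP4 had 6.72, 6.57 and 6.80 in sh1 and 5.67, 5.77 and 6.20 in sh2, against 9.82, 10.10 and 9.98 in the control. The control arrays of both genes lay at least 3 log2 units above every hairpin array. From the control, GBP2 changed by -4.16 and -3.66, GBP4 by -3.27 and -4.09, GBP1 by -1.90 and -2.25 and GBP3 by -1.69 and -1.96 (limma, adjusted p at most 6.03e-05). GBP5, with a signal near background, did not pass (-0.37 and -0.42, adjusted p = 0.342 and 0.279). The 4 that fell lie on chromosome 1, and after the neighbours were subtracted their differences were -4.20 to -1.75 over both lines. TNFSF10, the death ligand TRAIL, went in opposite directions, with -2.06 in sh1, against 0.70 in sh2 (adjusted p = 3.01e-05 and 0.039). The sh2 call of TNFSF10 was lost without any 1 control array, sh1 array 1 or sh2 array 2 or 3 (0.52 to 0.80) and after the neighbours were subtracted (0.61, adjusted p = 0.0677). The list of interferon gamma receptor and signalling genes also holds IFNAR1, IFNAR2 and TYK2, which serve type I interferon. Of its 12 measured genes, 2 fell and 2 rose in sh1, and 3 fell and 2 rose in sh2. IFNAR2 rose in both lines, by 0.54 and 0.58 (limma, adjusted p = 0.0142 and 0.0121). The receptor subunit IFNGR1 fell by 0.53 and 0.79 (adjusted p = 0.0337 and 0.00427), IFNGR2 rose by 0.78 in sh2 (adjusted p = 0.0012), and the kinase TYK2 fell by 0.61 and 0.60 (adjusted p = 0.00627 and 0.00819). The sh1 call of IFNGR1 was lost without any 1 control array or sh1 array 2 or 3 (-0.56 to -0.44), and after the neighbours were subtracted IFNGR1 in sh1 (-0.25) and TYK2 in both lines (-0.37 and -0.32) no longer passed.

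**Figure D4:**
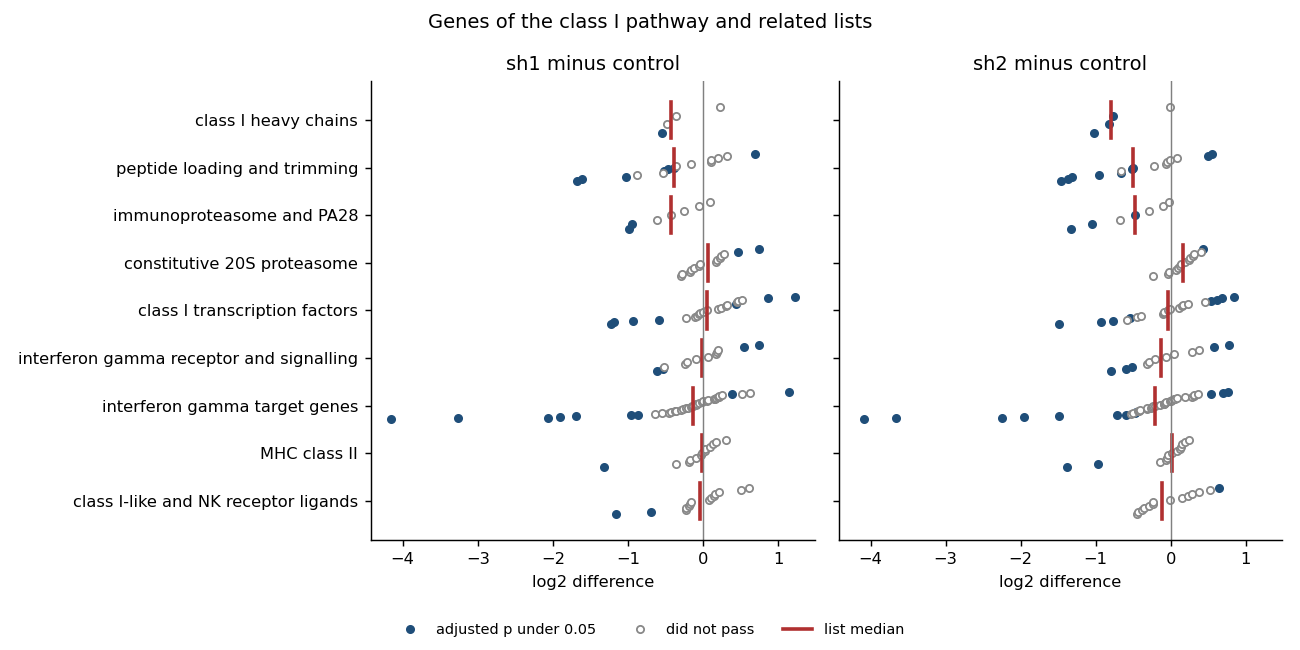
Log2 difference from the control in sh1 (left) and sh2 (right) for each measured gene of 9 lists (points, filled where the adjusted p from limma was under 0.05), with the median of the list (red line) and the members kept in their lists. The medians of the heavy chains, of peptide loading and of the immunoproteasome lie between -0.80 and -0.39 (between -0.77 and -0.23 without the members), and those of the other lists between -0.21 and 0.16.

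MHC class II genes, which mark professional antigen-presenting cells, were near background. Of 13 measured, 9 lay under the quartile, CIITA and HLA-DRA among them, and the list had medians of -0.01 in sh1 and 0.02 in sh2. CTSS, the protease cathepsin S, fell by 1.31 and 1.38 (limma, adjusted p = 0.00185 and 0.00163), and CD74, the invariant chain, fell by 0.97 in sh2 (adjusted p = 0.00787), or -0.45 after the neighbours were subtracted (adjusted p = 0.18). After that subtraction 4 class II genes passed as higher in each line, against 0 as deposited, and CIITA passed as lower in sh1 (-0.70, adjusted p = 0.00315). A flat signal turns into a rise when a fall of its neighbours is subtracted. These calls therefore show no rise of class II RNA. Among 14 class I-like molecules and ligands of natural killer cell receptors, 2 fell and 0 rose in sh1, and 0 fell and 1 rose in sh2. For all rows the shares were 9.0% lower and 9.76% higher in sh1, and 7.98% and 8.33% in sh2. The genes that fell in sh1 were MR1, which presents microbial vitamin metabolites (-1.15, adjusted p = 0.000164), and HFE, a regulator of iron uptake on chromosome 6 (-0.69, adjusted p = 0.00523). MICA and MICB, ligands of NKG2D beside HLA-C, did not pass in sh1 (0.11 and 0.16) or in sh2 (-0.43 and -0.38, adjusted p = 0.115 and 0.0726), but MICB passed in sh1 after the neighbours were subtracted (0.58, adjusted p = 0.0125) and MICA in sh2 without sh2 array 1 (-0.58). As for the class II genes, the 0.58 of MICB is relative to its neighbours and shows no rise of its RNA.

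Of 14 measured genes of class I endocytosis and degradation, 1 fell and 0 rose in sh1, and 3 fell and 2 rose in sh2, beside 9.0% of all rows lower and 9.76% higher in sh1 and 7.98% and 8.33% in sh2. MARCHF8, a membrane ubiquitin ligase, changed by -0.91 and -0.60 (limma, adjusted p = 0.00156 and 0.022), the second of which was lost without control array 1 or 3 or sh2 array 1 or 2 (-0.59 to -0.49) and after the neighbours were subtracted (-0.50, adjusted p = 0.0537). SEL1L, an adaptor of protein degradation at the endoplasmic reticulum, fell by 1.57 in sh2 (adjusted p = 1.15e-05), and HM13, a signal peptide peptidase, fell by 0.66 in sh2 (adjusted p = 0.00436). Of 12 checkpoint ligands, 1 fell and 2 rose in sh1, and 1 fell and 1 rose in sh2. NECTIN2, a ligand of the receptor TIGIT, rose by 0.89 and 0.99 (adjusted p = 0.00145 and 0.000808), CD47, the ligand that restrains phagocytosis, fell by 0.95 and 0.54 (adjusted p = 0.000511 and 0.019). The sh2 call of CD47 was lost without control array 3 (-0.48) or sh2 array 1 (-0.46), and after the neighbours were subtracted (-0.43). CD276 rose by 0.89 in sh1 (adjusted p = 0.015), or 0.20 after its neighbours on chromosome 15 were subtracted (adjusted p = 0.57), and did not pass without control array 2 (0.67) or sh1 array 3 (0.73).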

How the data were processed

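RNA of 9 AsPC-1 samples was labelled with biotin for 1-colour whole-transcript arrays from 100 ng, per the labels. The values are log2 signals as the authors deposited them, and the tool named is Transcriptome Analysis Console, per the submitters' processing notes. Which settings were used is not given in the sources used here, and the log2 scale was read from the values (2.03 to 18.57). They were used without further scaling. Of 21448 rows, 17709 carried 1 gene symbol in the platform annotation and 3739 none. Symbols and gene order came from RefSeq (GRCh38.p14) through gene IDs, which all matched. Where a gene had several rows, the row with the highest mean was used.

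Groups were compared with limma 3.58.1 in R 4.3.3, in 1 linear model over the 9 arrays with p-values adjusted by Benjamini and Hochberg over all rows and calls at an adjusted p under 0.05. SE and 95% intervals come from that model, and the number of arrays limits the precision. Fits were tested on simulated data. Neighbour correction subtracted, on each array, the median of the centred signals of up to 20 named genes on either side with a signal above the median, members left out. Array numbers were not used as pairs, since arrays with the same number deviated together at r = -0.0358 to 0.18 and 2 of 9 pairs were over 0.1. The alternatives were 2 other scalings, a filter, 2 other variance priors, fits of 2 groups, a block by array number, a stricter threshold, neighbour correction and leaving out each array. Named genes are the members, STOML2, up to 6 called genes of each list (those called in both lines first, then by size of change), set counterparts (nonclassical heavy chains, constitutive subunits), near neighbours and the 5 genes most like the members' mean. The members and lists were chosen with earlier results of these data known.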

Additional observations from a re-analysis of the deposited data

Results flagged for a closer look

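Signals differed between the hairpin lines for some named genes, by the test of sh2 minus sh1 itself (limma, adjusted p under 0.05, 3 arrays per line). Each line is 1 clone, so effects of the hairpins and differences between clones cannot be told apart, and no explanation was tested. TAP1 was the 1 class I member among them, with -0.80. The heavy chain HLA-G stood at -0.41 and the ligand MICB at -0.53. IRF1 stood at -1.68, SEL1L at -1.29, GBP4 at -0.82 and CD74 at -0.80. Of the markers of cell types, EPCAM stood at -4.20, CDH1 at -2.55, KRT19 at 1.12 and NCAM1 at 6.88. The target STOML2 stood at -0.59. PSME3 (-0.57), NFYB (-0.54), FADS2 (-0.54) and PSMA4 (-0.43) were lower in sh2 too. TNFSF10 was higher in sh2, by 2.76, and so were HFE (0.97), MR1 (0.79), IFNGR2 (0.58), GBP2 (0.50) and NFKB2 (0.47). The calls of TAP1, IRF1, SEL1L, GBP4, TNFSF10, HFE, MR1, IFNGR2, EPCAM, CDH1, KRT19 and NCAM1 held with any 1 array left out. Those of MICB, NFYB and PSME3 were lost without sh1 array 3 or sh2 array 2 (-0.52 to -0.45), that of CD74 without sh1 array 1 or 3 or sh2 array 1 or 2 (-0.85 to -0.64), and that of GBP2 without sh1 or sh2 array 1 or 3 (0.44 to 0.48). Calls of HLA-G, NFKB2, FADS2, PSMA4 and STOML2 were lost without most single arrays. After the neighbours were subtracted, PSMA4 stood at -0.004, HLA-G at -0.36, FADS2 at -0.44, NFKB2 at 0.46, CD74 at -0.70 and STOML2 at -0.54, and none of these passed.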

How the results depend on the processing

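Of 24 differences of members (8 genes, 3 comparisons) under 18 alternatives, 407 of 429 values kept the side of the threshold, 8 lost a call, 13 gained one and 1 gained one with its sign changed. The calls of TAPBP, PSMB8 and PSMB9 in both lines and of TAP1 in sh2 held under all alternatives run. Neighbour correction changed the sign of CANX in sh2 (0.004), NFYA in sh1 and sh2 (0.066 and 0.116) and PDIA3 in sh1 (-0.091), and these calls were lost. It also changed the sign of B2M in sh1 (-0.43) and PDIA3 in sh2 minus sh1 (0.41), which had not passed as deposited and passed after it. Members called higher in sh1 numbered 1 (B2M) with an intensity trend in the variance prior, against 0. Members called lower in sh2 minus sh1 numbered 2 with that trend, 2 with quantile normalization and 1 to 2 when 1 array was left out, against 1. The difference of STOML2 between sh2 and sh1 (-0.59, adjusted p = 0.0394) no longer passed with neighbour correction (-0.54), with only the 2 groups compared (-0.59), or at a threshold of 0.01 (-0.59). With 1 array left out (-0.72 to -0.40) it passed only without sh2 array 2. At the threshold of 0.01, 2425 rows passed in sh1 and 1921 in sh2, against 4025 and 3498. With the array number as a block (pairing not shown by the data), 4 members were lower in sh1, 6 in sh2 and 1 in sh2 minus sh1, as without it, and 3996 and 3432 rows passed. TAP2 in sh1 passed with an intensity trend, quantile normalization, only the 2 groups, without dim rows or without sh2 array 1 or 3, and HLA-C in sh1 with the trend, only the 2 groups or without sh2 array 3. The cause of these moves was not tested. NLRC5 could not be fitted without rows under the quartile, and no member had a further row to average. Signals near background limit NLRC5.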
